A study of Mus musculus with 6 samples.

Results

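Ms4a genes encode small proteins that cross the membrane several times and sit beside receptors on the surface of blood-derived cells. The family is best known through Ms4a1, which encodes the B cell antigen CD20, and Ms4a2, the beta chain of the high-affinity IgE receptor of mast cells and basophils. Ms4a7, Ms4a6d and Ms4a6c are genes of monocytes and macrophages, Ms4a4b and Ms4a6b are known from T cells, and Ms4a3 marks precursors of granulocytes and monocytes in the bone marrow. In the liver, where hepatocytes supply most of the RNA, these transcripts come mainly from resident and incoming leukocytes.

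The 10 members described here, Ms4a1, Ms4a2, Ms4a3, Ms4a4b, Ms4a4c, Ms4a4d, Ms4a6b, Ms4a6c, Ms4a6d and Ms4a7, were taken by gene symbol from 17347 genes named on either of 2 Agilent array types. All 10 had a feature on the oligonucleotide array with a value in every pool, and 4 had features on the cDNA array, of which Ms4a1 and Ms4a6d had values in every pool. The family was chosen by its ratios on these same arrays, which were already known, so the values of the members are a description, no p-value is given for a member's own ratio, and nothing is concluded from their counts.

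All mice were C57BL/6 females on a low-fat chow (4.4% fat), and injections began at 7 weeks of age. Poloxamer P-407, a block copolymer detergent used to raise blood lipids, was injected intraperitoneally at 0.5 g/kg with 3 days between doses in 12 mice, and 4 control mice received normal saline on the same schedule. Livers were taken at day 96, the treated RNA was combined into 3 pools and the control RNA into 1, and how mice were assigned to pools is not stated. Each pool was read on 1 array of each type in Cy5 against the same control pool in Cy3, so no array had the dyes exchanged, and neither the spread between control mice nor a dye effect of a gene can be told apart from treatment. Each value is the log2 ratio of a treated pool to the control pool (the log base and direction are inferred) on arrays centred on their median, and a value of 0 was taken as missing. The number of arrays limits the precision, the files give no signal over background, and the p-values measure only the spread between pools. The median SD of a gene over pools was 0.08 on the oligonucleotide array (16871 genes) and 0.32 on the cDNA array (5011 genes).

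The members lie in 1 cluster of Ms4a genes on mouse chromosome 19, and the sequence around the starts of 8 of them was compared. RefSeq promoter windows (GRCm38.p6, 250 bases before to 50 bases after a start) were found for 8 of the 10 members. None was found for Ms4a1 and Ms4a6d, so whether these are close copies of another member was not examined. They are printed for Ms4a7, the member with the highest ratio (the more upstream of 2 listed starts), and for the closest pairs of copies. Capitals mark GGAAGT or its reverse complement ACTTCC, the core that ETS factors such as PU.1, a regulator of macrophage and B cell genes, bind. The windows, 5′ to 3′ on the strand of the gene, were chr19:11336097-11336396 on the minus strand for Ms4a7, and on the plus strand chr19:11518309-11518608 for Ms4a6b, chr19:11469118-11469417 for Ms4a6c, chr19:11443308-11443607 for Ms4a4b and chr19:11407411-11407710 for Ms4a4c.
Ms4a7: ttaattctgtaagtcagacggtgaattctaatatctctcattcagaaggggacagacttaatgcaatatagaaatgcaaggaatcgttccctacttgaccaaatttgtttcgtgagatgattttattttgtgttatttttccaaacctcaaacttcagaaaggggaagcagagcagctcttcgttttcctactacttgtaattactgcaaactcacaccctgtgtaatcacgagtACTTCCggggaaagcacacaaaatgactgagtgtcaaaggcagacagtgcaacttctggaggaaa
Ms4a6b: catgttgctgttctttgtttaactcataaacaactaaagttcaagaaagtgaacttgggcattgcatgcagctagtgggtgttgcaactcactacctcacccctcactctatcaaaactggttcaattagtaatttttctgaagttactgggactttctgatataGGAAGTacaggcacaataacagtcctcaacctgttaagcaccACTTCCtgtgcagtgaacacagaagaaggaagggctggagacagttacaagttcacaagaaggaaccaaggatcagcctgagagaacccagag
Ms4a6c: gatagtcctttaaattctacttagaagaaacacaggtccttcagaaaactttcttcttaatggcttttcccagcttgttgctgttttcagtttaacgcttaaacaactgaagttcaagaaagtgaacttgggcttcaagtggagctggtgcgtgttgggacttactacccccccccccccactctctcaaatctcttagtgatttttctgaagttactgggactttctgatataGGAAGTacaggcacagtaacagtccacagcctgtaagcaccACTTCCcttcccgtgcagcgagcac
Ms4a4b: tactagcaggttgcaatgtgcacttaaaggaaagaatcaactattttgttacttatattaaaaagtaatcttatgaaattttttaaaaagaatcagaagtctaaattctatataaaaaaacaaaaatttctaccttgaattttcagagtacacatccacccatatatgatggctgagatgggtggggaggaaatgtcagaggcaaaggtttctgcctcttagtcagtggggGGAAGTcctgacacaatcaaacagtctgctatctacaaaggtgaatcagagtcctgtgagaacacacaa
Ms4a4c: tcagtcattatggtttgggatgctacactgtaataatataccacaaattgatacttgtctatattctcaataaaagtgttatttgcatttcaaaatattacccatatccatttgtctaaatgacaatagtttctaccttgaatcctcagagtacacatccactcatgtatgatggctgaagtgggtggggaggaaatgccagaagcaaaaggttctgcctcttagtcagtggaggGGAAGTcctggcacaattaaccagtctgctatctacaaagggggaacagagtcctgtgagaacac

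Of the 28 pairs among these 8 windows, 2 aligned over a long stretch. Ms4a6b and Ms4a6c matched at 193 of 234 aligned positions (82.5%), and Ms4a4b and Ms4a4c at 159 of 178 (89.3%). The next pair aligned over 28 positions. Ms4a7 did not align over a long stretch with any other window. GGAAGT stood on either strand in 7 of the 8 windows, Ms4a2 being the exception, and in 23.8% of all 32851 windows of 300 bases. In Ms4a7 the single match began 15 bases before the start. TGANTCA, an AP-1 motif, was found in 1 of the 8 windows (Ms4a4b) and in 7.81% of all. The interferon-response (IRF) motif was in 0 of the 8 and in 3.44% of all. These motifs were chosen after the windows had been seen, the copies share their matches by descent, and no binding was measured. Whether a feature for Ms4a6b also reads Ms4a6c, or one for Ms4a4b also reads Ms4a4c, was not tested, so the separate values of these pairs are uncertain. Cross-reading between other members, Ms4a6d among them, was not tested either.

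On the oligonucleotide array every member lay above 0 in all 3 pools, with means from 1.08-fold to 4.11-fold. Of all genes, 35.1% lay above 0 on all 3 arrays. The fit over all genes (limma, Benjamini-Hochberg adjusted p under 0.05) called 9 of the 10 members higher and 0 lower, with Ms4a2 not called, on an array where it called 22.0% of genes higher, 21.4% lower and 43.4% in either direction. The median of the members was 0.34 on the log2 scale and that of all genes 0.00. One member, Ms4a7, exceeded a ratio of 2-fold, as 0.676% of all genes did. Without pool 1, 6 members were called, and Ms4a3, Ms4a4b and Ms4a4c dropped out besides Ms4a2, while 23.9% of all genes were called. Without pool 2, 9 members and 29.2% of all genes were called. Without pool 3, 8 members and 37% of all genes were called, and Ms4a4b dropped out besides Ms4a2. In liver RNA as a whole, more cells of a type and more RNA per cell cannot be told apart.

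**Figure D1:**
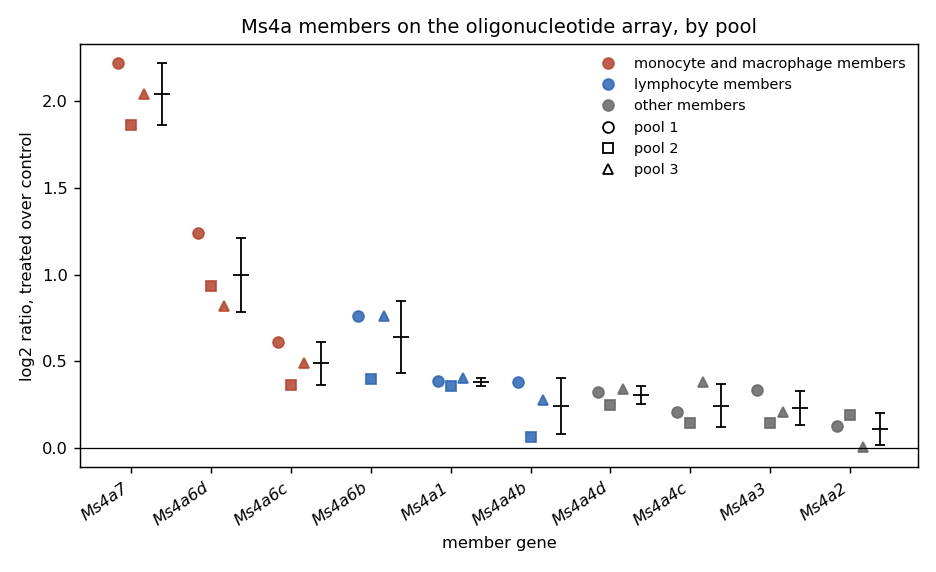
Log2 ratio of treated over control livers for each of the 10 Ms4a members on the oligonucleotide array, with 1 symbol per pool and the mean ± SD of 3 pools beside it. Ms4a7 sits between 1.86 and 2.22, apart from Ms4a6d, and the remaining members lie between 0.01 and 0.76.

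Among the macrophage members, Ms4a7 (Entrez gene 109225) carried by far the highest ratio. Its log2 ratio was 2.22, 1.86 and 2.04 in pools 1, 2 and 3, a mean of 2.04 ± 0.18 (SD, n = 3 pools) or 4.11-fold. All 3 pools lay above every value of the other members. In rank it was 13 of 16871 genes counted from the highest ratio. The direction was inferred from the titles and dyes, and with the sign turned it would be 13 from the lowest, at a ratio of 0.243.

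Ms4a6d, a macrophage gene nearer the other end of the cluster, was second at 1.24, 0.93 and 0.82, a mean of 0.997 ± 0.22 (SD, n = 3 pools). Pool 1 was the highest here and pools 2 and 3 lay close together. The gap between Ms4a7 and Ms4a6d was 1.04 ± 0.15 (SD, n = 3 pools), and the pools of the pair did not overlap.

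Ms4a6c, expressed by monocytes and macrophages, was lower than either, at 0.61, 0.36 and 0.49 (mean 0.49 ± 0.12, SD, n = 3 pools, or 1.40-fold). Its copy Ms4a6b, known from T cells including regulatory T cells and found in myeloid cells as well, gave 0.76, 0.40 and 0.76 (0.64 ± 0.21, SD, n = 3 pools, or 1.56-fold). Ms4a6b exceeded Ms4a6c in each pool, by 0.15 ± 0.12 (SD, n = 3 pools), but their ranges over pools overlapped. Placed by its ratio, Ms4a6b lay between the macrophage members Ms4a6d and Ms4a6c.

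The lymphocyte members Ms4a1 and Ms4a4b had modest ratios. Ms4a1 was 0.39, 0.36 and 0.40, and its mean of 0.38 ± 0.02 (SD, n = 3 pools, or 1.30-fold) had the smallest spread of all members. Ms4a4b, a protein of T cells that associates with the receptor GITR, was 0.38, 0.07 and 0.28 (0.24 ± 0.16, SD, n = 3 pools, or 1.18-fold). Pool 2 was close to 0 for Ms4a4b, so its ratio depends on pools 1 and 3.

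The remaining members had low ratios too. Ms4a4d stood at 0.32, 0.25 and 0.34 (0.30 ± 0.05, SD, n = 3 pools). Ms4a4c, the copy of Ms4a4b, expressed by myeloid and lymphoid cells, stood at 0.21, 0.14 and 0.38 (0.24 ± 0.12, SD, n = 3 pools), with a mean that differed from that of Ms4a4b by less than the SD of either. Ms4a3, the gene of myeloid precursors, stood at 0.34, 0.14 and 0.21 (0.23 ± 0.10, SD, n = 3 pools). Ms4a2, the IgE receptor chain, had the lowest mean, with 0.13, 0.19 and 0.01 (0.11 ± 0.09, SD, n = 3 pools), and pool 3 was almost at 0.

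Ordered by their means the members ran Ms4a7, Ms4a6d, Ms4a6b, Ms4a6c, Ms4a1, Ms4a4d, Ms4a4c, Ms4a4b, Ms4a3 and Ms4a2. Of the 9 pairs of neighbours in that order, the ranges over pools were separate for Ms4a7 and Ms4a6d, for Ms4a6d and Ms4a6b, and for Ms4a1 and Ms4a4d, the last pair by a gap of means of 0.08. All other neighbours overlapped. Pool 2 was the lowest pool in 8 of the 10 members, and the members averaged 0.66 in pool 1, 0.47 in pool 2 and 0.57 in pool 3.

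**Figure D2:**
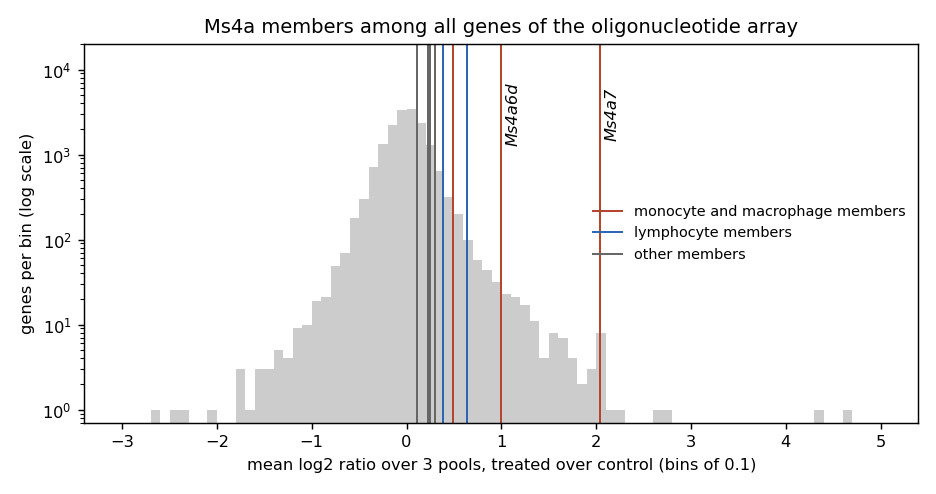
Mean log2 ratio of all 16871 genes of the oligonucleotide array (grey bars, number of genes per bin on a log axis) with a vertical line for each Ms4a member. Ms4a7 at 2.04 lies in the far right tail, Ms4a6d at 0.997 at the start of it, and Ms4a2 at 0.11 within the bulk.

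For the contrast of macrophage with lymphocyte members, Ms4a6c, Ms4a6d and Ms4a7 were averaged and set against Ms4a1, Ms4a4b and Ms4a6b in each pool. The macrophage members averaged 1.35, 1.05 and 1.12, and the lymphocyte members 0.51, 0.27 and 0.48. The difference was 0.84, 0.78 and 0.64, a mean of 0.75 ± 0.11 (SD, n = 3 pools) or 1.69-fold, with the macrophage members higher in each pool. Much of it came from Ms4a7. With Ms4a6c and Ms4a6d alone the difference was 0.32 ± 0.13 (SD, n = 3 pools). Adding Ms4a4c to the macrophage side gave 0.52, and leaving Ms4a6b out of the lymphocyte side gave 0.86. The sides are assigned by where these genes are known to be expressed, and the members within each side spread widely, from 0.49 to 2.04 and from 0.24 to 0.64.

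The ratio changed from gene to gene along the cluster. RefSeq lists 22 protein-coding genes from Ms4a10 to Ms4a3, of which 21 are named Ms4a, and 14 were measured on the oligonucleotide array, the 10 members and 4 others at the Ms4a10 end. Among these others Ms4a10 rose (0.41 ± 0.14, SD, n = 3 pools, limma adjusted p = 0.00405) and Ms4a8a, known from the intestine and from some macrophages, fell (-0.23 ± 0.13, SD, n = 3 pools, limma adjusted p = 0.0214). Ms4a19 fell (-0.24 ± 0.06, SD, n = 3 pools, limma adjusted p = 0.00880) and Ms4a20 rose (0.19 ± 0.15, SD, n = 3 pools, limma adjusted p = 0.0495), both looked up after their values were known. Ms4a8a was not called without pool 1 or without pool 2, and Ms4a20 not without pool 1, without pool 3 or with the arrays scaled to a common spread.

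The nearest genes outside the cluster took both directions. The highest, Ccdc86, lay below Ms4a1 in mean but above Ms4a4d, Ms4a4c, Ms4a4b, Ms4a3 and Ms4a2. Tmem109 and Ccdc86 rose, and Prpf19 and Cblif fell. The 5 measured genes ahead of the cluster, Tmem109, Prpf19, Zp1, Ptgdr2 and Ccdc86, ranged from -0.16 to 0.35. The 5 behind it, Oosp1, Cblif, Mrpl16, Stx3 and Olfr1417, ranged from -0.28 to 0.04. Oosp1, the next measured gene after Ms4a3, was at -0.09 ± 0.02 (SD, n = 3 pools). The direct neighbours of Ms4a7, Ms4a14 and Ms4a4a, were not analysed here, and the nearest measured genes, Ms4a1 and Ms4a4c, had much lower ratios. Ms4a6d lay directly between Ms4a4d and Ms4a2, both with lower ratios.

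**Figure D3:**
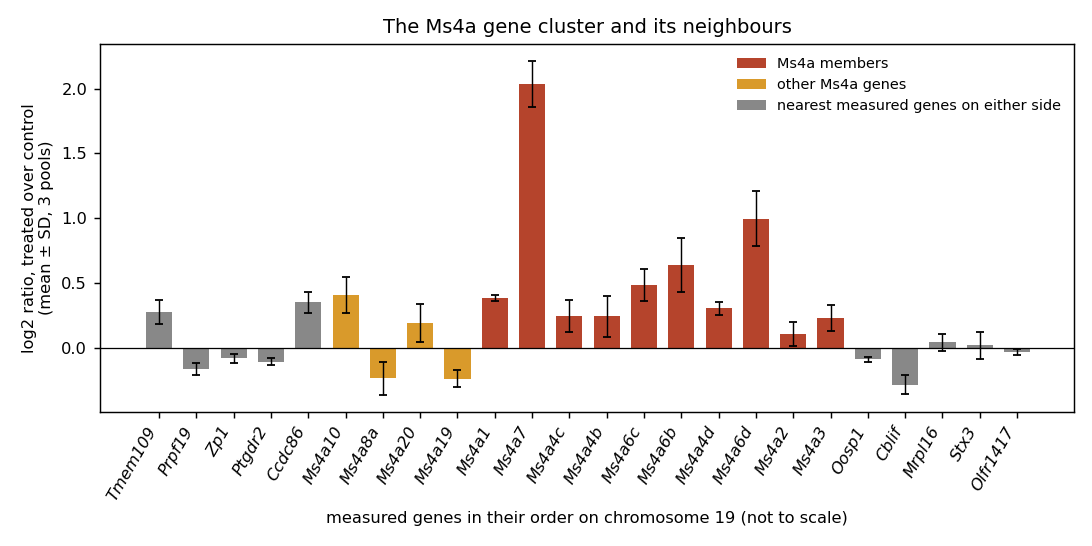
Log2 ratio of treated over control on the oligonucleotide array (bars, mean ± SD of 3 pools) for the measured genes of the Ms4a cluster and 5 measured genes on each side, in their order on chromosome 19. Members are red, other Ms4a genes orange and outside genes grey. Ms4a7 at 2.04 and Ms4a6d at 0.997 stand out between nearest measured genes at 0.38 or below.

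The cDNA array read the same RNA after direct labelling of 10 ug, against 0.5 ug amplified for the oligonucleotide array, and gave mixed results for the 4 members it carried. Its limma fit called 0 of 5011 genes (0%), with 1518 genes at an unadjusted p under 0.05, and 0 genes with robust variance estimates. Ms4a6d was 3.47, 3.06 and 1.83 in pools 1, 2 and 3, a mean of 2.79 ± 0.85 (SD, n = 3 pools) or 6.90-fold. It was above 0 in every pool on both array types, as 31.1% of genes were on the cDNA array, and 8.58% of genes there reached a mean of 2-fold. Its cDNA ratio exceeded its oligonucleotide ratio in every pool.

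Ms4a1 went the other way on the cDNA array. One of its 2 cDNA features gave 0.16, -1.97 and -0.30 and the other -0.73, -0.37 and -0.61. Averaged over both, Ms4a1 was -0.29, -1.17 and -0.46 (-0.64 ± 0.47, SD, n = 3 pools), below 0 in every pool as 26.3% of genes were on that array, while it was above 0 in every pool on the oligonucleotide array. The features differed from each other by more than 1 unit in pool 2.

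Ms4a6c and Ms4a4b each had a cDNA value on only 2 arrays, which enter no mean here. Ms4a6c was 2.30 in pool 1 and -0.48 in pool 3, and Ms4a4b was -0.30 in pool 2 and -0.12 in pool 3. The Ms4a6c values had opposite signs, and those of Ms4a4b lay on the other side of 0 from its oligonucleotide values. The direction of both therefore rests on the oligonucleotide array.

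Whether the ratio of a gene differed between array types was fitted over the 4702 genes measured on all 6 arrays. Without a block, limma called 537 of them (11.4%), and Ms4a1 (oligonucleotide minus cDNA 1.02 ± 0.24, SE, adjusted p = 0.0529) and Ms4a6d (-1.79 ± 0.43, SE, adjusted p = 0.0540) did not pass. Both array types read the same pools, which were matched here by sample number. With the pool as a replicate block limma called 0 genes (0%), with 1317 at an unadjusted p under 0.05. The limma adjusted p-values were then 0.138 for Ms4a1 and 0.128 for Ms4a6d. Without the block and without pool 3, Ms4a6d passed (-2.18, adjusted p = 0.0244). The smaller ratio of Ms4a6d and the opposite sign of Ms4a1 on the oligonucleotide array are thus not established as differences between array types. On the cDNA array the macrophage side held only Ms4a6d and the lymphocyte side only Ms4a1, and their difference was 3.42 ± 1.01 (SD, n = 3 pools). It was 2.09 with values of 0 kept and 2.27 with genes measured on 2 of 3 arrays added, both of which bring in Ms4a6c and Ms4a4b. Without pool 2 it was 2.15 with Ms4a6c brought in, and 3.02 for Ms4a6d and Ms4a1 alone.

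**Figure D4:**
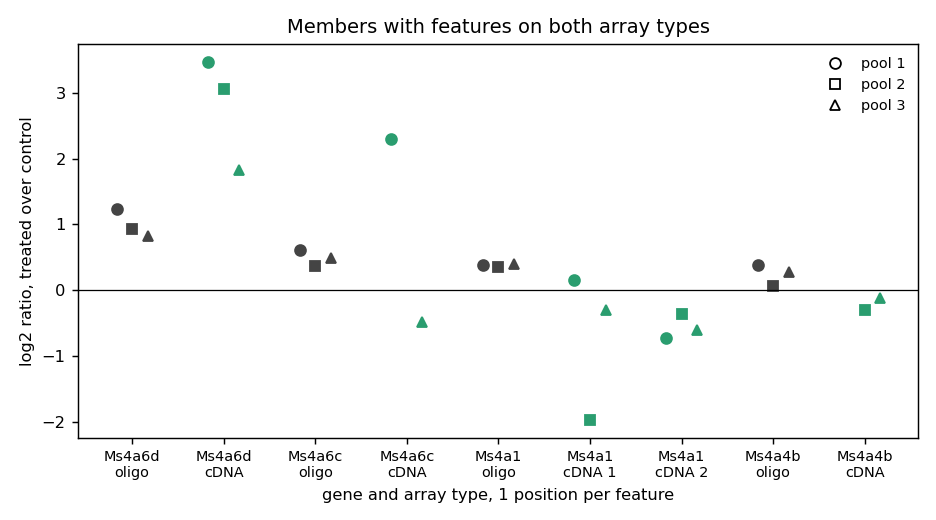
Log2 ratio of treated over control for the 4 members with features on both array types, 1 position per feature, with oligonucleotide features dark, cDNA features green and 1 symbol per pool. Ms4a6d is above 0 throughout, reaching 3.47 on the cDNA array, whereas the cDNA features of Ms4a1 and Ms4a4b lie mostly below 0 and Ms4a6c has 1 cDNA value on each side of it.

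Markers of the cell types in which Ms4a genes are known to be expressed were read from lists written with earlier results of these data known. On the oligonucleotide array 22.0% of all genes were called higher and 21.4% lower, the shares beside which each list count is read. Most macrophage and monocyte genes rose. Of 26 measured, 22 rose and 1 fell, with a median of 0.80 against 0.00 for all genes and list means of 1.30, 1.13 and 1.09 in pools 1, 2 and 3. The 3 not called, looked up after their values were known, were the monocyte genes Ccr2 (0.08) and Ly6c2 (-0.16), and Cd14 (-0.08). Cx3cr1 rose by only 0.20. The rise of the list is thus not shown for its monocyte genes as a group. The median of the 17 measured on the cDNA array was 1.32. Gpnmb, a glycoprotein of lipid-laden phagocytes, rose by 4.63 ± 0.07 (SD, n = 3 pools, limma adjusted p = 1.13e-06). Cd68, a lysosomal protein of macrophages, rose by 1.61 ± 0.09 (SD, n = 3 pools, limma adjusted p = 8.23e-05), and Adgre1, a surface receptor that defines mouse macrophages, by 0.95 ± 0.34 (SD, n = 3 pools, limma adjusted p = 0.00249). Itgam, an integrin of monocytes and granulocytes, fell (-0.43 ± 0.06, SD, n = 3 pools, limma adjusted p = 0.00135). Csf1r was not analysed here. The part of macrophage number in the ratios of Ms4a7, Ms4a6d and Ms4a6c was not tested.

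Genes of resident Kupffer cells, the macrophages of the liver sinusoids, took both directions. Of 6 measured, 2 rose and 4 fell, with a median of -0.60 (0.13 over 4 genes on the cDNA array), and 3 fell without pool 1, without pool 2 or with robust variance estimates. Cd163, the haemoglobin scavenger receptor, fell (-1.77 ± 0.13, SD, n = 3 pools, limma adjusted p = 1.10e-04), as did Folr2 (-1.03 ± 0.05, SD, n = 3 pools, limma adjusted p = 1.69e-04). Cd5l, a secreted protein of Kupffer cells, rose by 1.48 ± 0.17 (SD, n = 3 pools, limma adjusted p = 2.44e-04). The 3 macrophage members of the Ms4a family lay above 0 like Cd5l and Cd68. So did all 10 members, which were chosen with their ratios known, so this side is not particular to the macrophage members.

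B cell genes took both directions, with 1 high ratio. Of 13 measured, 6 rose and 2 fell, with a median of 0.07 and list means of 0.29, 0.19 and 0.26, and without pool 1 the counts were 3 and 0. Blnk, an adaptor of B cell receptor signalling that macrophages also use, rose by 1.95 ± 0.12 (SD, n = 3 pools, limma adjusted p = 7.84e-05). Cd79b, a chain of the B cell receptor, rose by 0.53 ± 0.21 (SD, n = 3 pools, limma adjusted p = 0.00455) but was -0.31, -2.94 and -0.12 on the cDNA array, below 0 in every pool and not called. Its partner chain Cd79a was at -0.01 ± 0.06 (SD, n = 3 pools) and was not called. Fcer2a, the low-affinity IgE receptor of B cells, rose by 0.28 ± 0.07 (SD, n = 3 pools, limma adjusted p = 0.00534), less than Ms4a1. Cd37, a tetraspanin of B cells, fell (-0.20 ± 0.05, SD, n = 3 pools, limma adjusted p = 0.0130), was not called without pool 1, was at 0.031 by its feature with the smallest spread, and was at 0.77 ± 0.19 (SD, n = 3 pools, not called) on the cDNA array.

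T and NK cell genes had low ratios. Of 23 measured, 8 rose and 2 fell, with a median of 0.09 and list means of 0.14, 0.04 and 0.09. The other 13 were not called, a share close to that of all genes, of which 43.4% were called in either direction. On the cDNA array, where no gene was called, the median of the 10 measured was -0.29 against 0.06 for all genes. Without pool 1, 2 rose and 0 fell, and without pool 2 or without pool 3, 5 rose and 1 fell. Cd4 rose by 0.35 ± 0.18 (SD, n = 3 pools, limma adjusted p = 0.0124), Lat by 0.26 ± 0.09 (SD, n = 3 pools, limma adjusted p = 0.00953) and Thy1 by 0.25 ± 0.09 (SD, n = 3 pools, limma adjusted p = 0.00991). Lat and Thy1 were not called without pool 1. The kinase gene Zap70 fell (-0.27 ± 0.13, SD, n = 3 pools, limma adjusted p = 0.0142) and was not called without pool 1 or without pool 2. The T cell receptor genes Cd3e (0.11 ± 0.06, SD, n = 3 pools, not called) and Cd3g (0.16 ± 0.04, SD, n = 3 pools, limma adjusted p = 0.0258, not called without pool 1 or without pool 2) lay below Ms4a4b in mean. The third chain Cd3d (0.25 ± 0.15, SD, n = 3 pools) and Cd8a (0.25 ± 0.14, SD, n = 3 pools), looked up after their values were known, were close to Ms4a4b. In each pool the ratio of Ms4a6b exceeded the list mean of the T and NK cell genes.

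Genes of mast cells and basophils, the cells of the IgE receptor, did not rise. Of 9 measured, 0 rose and 1 fell, with a median of -0.01 and a highest mean of 0.104. The mean of Ms4a2, 0.109, was close to that highest mean, of Cma1. They differed by far less than the SD of either (0.09 for Ms4a2 and 0.06 for Cma1), and neither was called. The mast cell protease gene Cpa3 was at -0.06 ± 0.06 and the receptor's alpha chain gene Fcer1a at 0.06 ± 0.02 (SD, n = 3 pools, neither called), while Kit, the receptor for stem cell factor, fell (-0.27 ± 0.03, SD, n = 3 pools, limma adjusted p = 0.00419).

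The third chain of that receptor behaved differently. Fcer1g, the gamma chain, which macrophages also use for IgG receptors, was 1.26, 1.15 and 0.99 and rose by 1.13 ± 0.13 (SD, n = 3 pools, limma adjusted p = 3.07e-04). Of 9 measured genes of IgE receptor signalling, 7 rose and 1 fell, among them Plcg2 at 0.66 ± 0.14 (SD, n = 3 pools, limma adjusted p = 0.00110) and Inpp5d, a lipid phosphatase that restrains it, at 0.86 ± 0.21 (SD, n = 3 pools, limma adjusted p = 0.00114). Fcer1a, Lat and Btk among the 9 were also on the mast cell, T and NK cell and B cell lists. Plcg1 fell (-0.22 ± 0.02, SD, n = 3 pools, limma adjusted p = 0.00754), and was not called without pool 1 or by its feature with the smallest spread. The alpha and beta chains, Fcer1a and Ms4a2, were thus near 0 while the shared gamma chain was 2.19-fold higher.

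Granulocyte and precursor genes rose in 9 of 11 cases with 0 lower, with a median of 0.53 and list means of 0.76, 0.58 and 0.48. S100a9, an abundant protein of neutrophils and monocytes, was 3.99-fold higher (1.996 ± 0.42, SD, n = 3 pools, limma adjusted p = 6.20e-04). Camp rose by 0.94 ± 0.17 (SD, n = 3 pools, limma adjusted p = 6.26e-04), and Cd34, a gene of progenitors that endothelium also expresses, by 0.60 ± 0.04 (SD, n = 3 pools, limma adjusted p = 5.44e-04). Of the genes that share precursors with Ms4a3 (0.23), Mpo rose by 0.53 ± 0.17 (SD, n = 3 pools, limma adjusted p = 0.00279) and Elane by 0.35 ± 0.22 (SD, n = 3 pools, limma adjusted p = 0.0195, not called without pool 1 or without pool 2). Of the other primary granule genes, looked up after their values were known, Ctsg was at 0.18 ± 0.04 (SD, n = 3 pools, limma adjusted p = 0.0178) and Prtn3 at -0.03 ± 0.16 (SD, n = 3 pools, not called). On the cDNA array Mpo was at 0.03 ± 0.42 (SD, n = 3 pools, not called).

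Hepatocyte genes fell in 5 of 8 cases with 0 higher, with a median of -0.41 and list means between -0.49 and -0.39. On the cDNA array the median of the 5 measured was -0.06. Tat lay at -1.23 ± 0.26 (SD, n = 3 pools, limma adjusted p = 7.13e-04), Ass1 at -0.70 ± 0.05 (SD, n = 3 pools, limma adjusted p = 4.15e-04) and Arg1 at -0.70 ± 0.03 (SD, n = 3 pools, limma adjusted p = 3.80e-04). Ratios of the order of 0.2 to 0.4, which 5 of the members had, are no larger in size than that shift of the hepatocyte list, and its part in them was not tested.

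**Figure D5:**
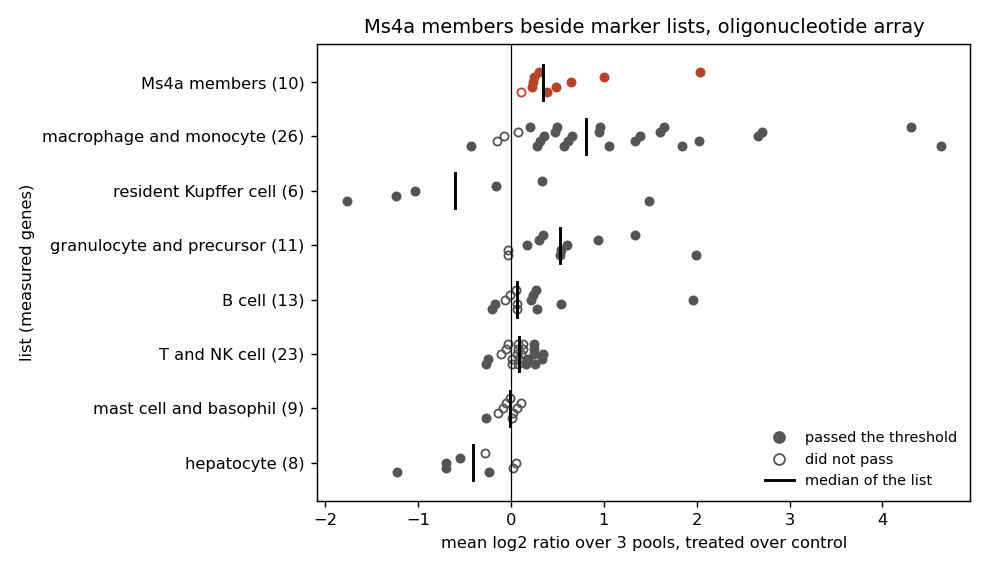
Mean log2 ratio over 3 pools on the oligonucleotide array for the 10 Ms4a members and for the measured genes of 7 marker lists, filled where the limma adjusted p passed 0.05, with a bar at each median. The macrophage list (median 0.80) reaches beyond Ms4a7, whereas in the B cell list (median 0.07) only Blnk at 1.95 comes near it and no T and NK cell or mast cell gene exceeds 0.35.

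Proteins that are known to work beside Ms4a proteins in the membrane were read as well. Of 8 measured, 5 rose and 1 fell, with a median of 0.61. Trem2, Tyrobp and Clec7a were also on the macrophage list, Cd22 and Cd37 on the B cell list. Tnfrsf18 was also on the T and NK cell list, so these counts are not separate from those above. The gene that fell was Cd37, described with the B cell genes. Trem2, a lipid-binding receptor of macrophages whose shed form is tied to MS4A variants in humans, rose by 4.31 ± 0.19 (SD, n = 3 pools, limma adjusted p = 1.57e-05), and its signalling partner Tyrobp by 1.65 ± 0.21 (SD, n = 3 pools, limma adjusted p = 2.53e-04). Clec7a, the receptor Dectin-1, which works with MS4A4A, rose by 2.66 ± 0.17 (SD, n = 3 pools, limma adjusted p = 4.73e-05). Tnfrsf18, which encodes GITR, the partner of Ms4a4b on T cells, was at -0.06 and was not called. Of the related membrane genes outside the cluster, Tmem176a rose by 0.41 ± 0.08 (SD, n = 3 pools, limma adjusted p = 0.00207) and Tmem176b by 0.33 ± 0.08 (SD, n = 3 pools, limma adjusted p = 0.00391), and on the cDNA array Tmem176b was close to that, at 0.38 ± 0.15 (SD, n = 3 pools, not called).

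The genes whose ratios lay nearest to those of Ms4a7 over the 3 oligonucleotide arrays, by the root mean square difference, were Blnk (0.10), Arhgap25 (0.11), Ctss (0.12), Vcam1 (0.14) and Egr1 (0.17). Their means ran from 1.95 for Blnk to 2.11 for Egr1. Ctss encodes a lysosomal protease of antigen-presenting cells, Vcam1 an adhesion molecule for leukocytes, and Egr1 an immediate-early transcription factor. With 3 arrays the measure reads mainly the size of the ratio.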

How the data were processed

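Liver RNA of 3 treated pools was read against 1 control pool on 6 two-colour Agilent arrays. The deposited log2 ratios were made by the authors, and the sources used here do not give the background correction, normalization, filters, log base or direction. The base was read as 2 because the largest absolute value was 6.34, and a natural log is possible, in which case the folds are understated. The direction, treated over control, was read from titles and dyes, per the labels. The medians of the non-zero features were 0.01 on each oligonucleotide array and -0.07, -0.09 and -0.02 on the cDNA arrays.

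Values of 0 were set to missing and each array was centred on its median. Features that named 1 gene and had no missing value within an array type were averaged per gene. Each type was fitted with limma 3.58.1 in R 4.3.3 (lmFit, eBayes, mean against 0, Benjamini-Hochberg over all genes, threshold 0.05). Members, lists and tests were chosen with earlier results of these data known. The text names the 10 members, the 3 called genes of smallest p in each list with the first in the rarer direction, fixed defining markers, and the 5 genes nearest to Ms4a7. Pool numbers pair the array types because each RNA was split over both. Deviations of same-numbered arrays correlated at 0.06, 0.07 and 0.07 across genes. The fits were tested on simulated data. For 50 genes changed by 1 log2 unit, the oligonucleotide fit recovered 50 and the cDNA fit 13. The cDNA fit recovered 46 of 50 at 2 units and 49 of 50 at 3 units, whereas on the real cDNA arrays it called 0 genes. Between array types, where 200 of 4702 genes were changed by 2 units, the fit without a block recovered 188 with 34 false calls, and the fit with the block 186 with 9. Without a block the share of false calls exceeded 0.05, which limits the 537 calls of that fit on the real arrays. The simulated array types shared no pool effect, so the simulation cannot show what the block does on the real arrays. Promoter windows were read with Python 3.11.15 and aligned with Biopython 1.88.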

Additional observations from a re-analysis of the deposited data

Results flagged for a closer look

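Ms4a1 had opposite signs on the array types. Its cDNA array mean was -0.64, with all 3 pools below 0, while all 3 pools were above 0 on the oligonucleotide array. The difference did not pass limma's adjusted threshold without or with the pool as a block, and the cDNA mean rests on 2 features that differed in pool 2.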

How the results depend on the processing

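Alternatives were no centring, a common spread, zeros kept, values on 2 of 3 arrays, the feature with the smallest spread, robust variances and each pool left out. The members' means kept their sign and moved by no more than their SD under all 96 combinations run. With single pools left out, 4025 to 6244 genes (23.9% to 37%) and 6 to 9 members were called on the oligonucleotide array. The list genes called there numbered 53 to 66, against 73 with all pools. The macrophage minus lymphocyte difference ranged from 0.71 to 0.81 there, was 0.86 without Ms4a6b and 0.52 with Ms4a4c. On the cDNA array it was 2.09 with zeros kept, 2.27 with values on 2 of 3 arrays, both of which bring in Ms4a6c and Ms4a4b, and 2.15 to 3.99 with a pool left out, where Ms4a4b enters without pool 1 and Ms4a6c without pool 2. With Ms4a6d and Ms4a1 only, an alternative chosen after seeing the data, it was 3.02 to 3.99. Genes differing between array types numbered 537, 0 with the replicate block, and 0 to 1077 with a pool left out. Cd37 was 0.031 by its feature with the smallest spread, and Cd79a ranged from -0.045 to 0.0035 with a pool left out. Leaving out Ms4a6b or adding Ms4a4c gave no cDNA value, since neither had a cDNA feature. The missing intensities leave signal over background unknown for every member.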
